A study of Homo sapiens with 26 samples.

Results

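The aminoacyl-tRNA synthetase genes were followed across 3 human lung cancer cell lines exposed to the MYC inhibitor Omomyc. The set was chosen by gene name: 35 synthetase genes, 19 whose product works in the cytosol and 16 whose symbol ends in 2 and whose product works in mitochondria. A probe set with that gene symbol was found for 31 of the 35, 16 cytosolic and 15 mitochondrial, out of 17687 genes measured. MARS1, QARS1, VARS1 and TARS2 were not analysed here. Every measured synthetase gene had 1 probe set.

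Omomyc is a miniprotein made from the dimerization domain of MYC. It pairs with MYC and with MAX and keeps MYC from its sites in DNA. NCI-H1975 (H1975) cells had 5 arrays with Omomyc at 12.8 µM and 4 with the vehicle, phosphate-buffered saline (PBS). A549 cells had 3 arrays with Omomyc at 12.8 µM and 4 with PBS, and NCI-H1299 (H1299) cells had 5 of each. The labels used here do not say for how long the cells were exposed. PBS was the only control, so Omomyc and any other added protein cannot be told apart.

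A tRNA synthetase joins an amino acid to the tRNAs that carry it, so that the ribosome can read the code. Human cells keep separate enzymes for the tRNAs of the cytosol and of the mitochondria, all encoded in the nucleus, and the genes GARS1 and KARS1 serve both compartments. Several cytosolic enzymes, among them those of EPRS1, IARS1, LARS1, KARS1 and RARS1, sit in a multisynthetase complex. Genes of many cytosolic synthetases are known targets of ATF4, the transcription factor of the amino acid response, which acts through a CEBP-ATF response element (CARE). MYC and MAX bind the E-box.

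Both elements were looked for in windows of 300 bases, 250 before and 50 after the annotated start, from RefSeq GRCh38.p14. The letters searched were TGATGNAA for the CARE and CACGTG for the E-box, on both strands, and in the synthetase genes no match of one overlapped a match of the other. Windows were found for 27 of the 31 measured genes, 14 cytosolic and 13 mitochondrial, the others being YARS1, LARS1, AARS2 and VARS2. The CARE letters were in 6 of the 14 cytosolic genes and in 1 of the 13 mitochondrial genes, and in 3.59% of the 14250 measured genes with a window. The matches are shown with 30 bases each because most of them lay in cytosolic genes, and the capitals mark the motif as read on the strand of the gene.
AARS1, chr16:70289675-70289704, minus strand: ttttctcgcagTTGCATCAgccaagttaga
CARS1, chr11:3057407-3057436, minus strand: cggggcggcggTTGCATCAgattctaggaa
GARS1, chr7:30594834-30594863, plus strand: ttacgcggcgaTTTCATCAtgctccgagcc
IARS1, chr9:92293692-92293721, minus strand: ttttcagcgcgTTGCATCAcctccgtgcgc
NARS1, chr18:57621804-57621833, minus strand: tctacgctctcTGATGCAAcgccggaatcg
TARS1, chr5:33440956-33440985, plus strand: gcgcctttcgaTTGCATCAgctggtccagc
YARS2, chr12:32756076-32756105, minus strand: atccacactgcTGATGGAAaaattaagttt

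The first base of the match lay 187 bases before the start in AARS1, 33 in GARS1, 13 in IARS1 and 2 in CARS1. It lay 197 bases before the start in YARS2, the only mitochondrial gene with a match. In NARS1 and TARS1 the match began 15 and 3 bases after the start. The E-box letters were in 1 of 14 cytosolic genes, IARS1, and in 3 of 13 mitochondrial genes, CARS2, EARS2 and MARS2, against 10.79% of the measured genes with a window. IARS1 was the only synthetase gene with both motifs. In H1299 it had the largest change with Omomyc of all 31, though not in H1975 or A549. Its 250 bases before the start are therefore shown, with both motifs in capitals.
IARS1, chr9:92293698-92293947, minus strand: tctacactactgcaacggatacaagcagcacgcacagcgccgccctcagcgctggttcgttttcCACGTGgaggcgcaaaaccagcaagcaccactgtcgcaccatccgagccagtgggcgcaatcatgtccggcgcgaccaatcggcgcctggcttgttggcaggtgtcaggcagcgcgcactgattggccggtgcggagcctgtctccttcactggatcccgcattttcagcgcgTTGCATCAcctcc

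A match says that these letters are present and is not a measured site. The start of the cytosolic gene HARS1 and that of the mitochondrial gene HARS2 lie 85 bases apart and point away from each other, so the pair shares the stretch between them. It is shown because the 2 genes differed in their change, as described below, and it held neither motif.
Between HARS1 and HARS2, chr5:140691371-140691454, plus strand: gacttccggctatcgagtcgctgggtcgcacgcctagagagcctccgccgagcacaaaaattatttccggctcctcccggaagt

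The values were on the log2 scale, where a change of 1 is a 2-fold change. Changes are Omomyc minus PBS with the standard error (SE) of the limma fit, and adjusted p is the Benjamini-Hochberg value over all 17687 genes. A gene was called at an adjusted p under 0.05. By their distributions of values the arrays fell into 3 sets of 9, 10 and 7, called runs here. No label names them, and every line has both treatments in each run but A549, whose Omomyc arrays are in runs 1 and 2. The keratin genes KRT8 and KRT18 had means of 12.81 or more in every group. EPCAM (3.76 with Omomyc, 3.92 with PBS) and KRT7 (4.36 and 4.42) were near background in H1299, and of the lung lineage genes NKX2-1 was above background only in H1975 (7.05 and 7.54), while NAPSA and SFTPB were below it in every group. Leukocyte (PTPRC, CD3E) and endothelial (PECAM1, CDH5) markers and the fibroblast marker LUM had means of at most 3.35. COL1A1 was at 8.30 with Omomyc and 9.44 with PBS in H1975 and below background in the other lines. Background probe sets had means of up to 6.69. In RNA of whole cultures, a change in every cell and a change in the share of cells that express a gene cannot be told apart.

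With PBS, the cytosolic synthetase genes were lowest in H1975 and highest in H1299. The level was lowest in H1975 for 11 of 16 cytosolic genes and highest in H1299 for 10 of 16. Of the mitochondrial genes, 5 of 15 were lowest in H1975 and 7 were highest in H1299. Probe sets differ in their binding, so each gene is compared with itself across lines and not with another gene.

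YARS1, the tyrosyl-tRNA synthetase gene, was at 11.72 ± 0.06 (SD, n = 4) in H1975 PBS arrays and at 14.68 ± 0.17 (n = 5) in H1299 PBS arrays. That is a difference of -2.96 ± 0.19 (SE, limma adjusted p = 8.29e-14), and A549 lay between at 12.97 ± 0.13 (SD, n = 4). The seryl-tRNA synthetase gene SARS1 differed by -2.46 ± 0.19 and the leucyl-tRNA synthetase gene LARS1 by -2.15 ± 0.20 between the same lines. For these 3 genes no H1975 PBS array reached any H1299 PBS array. In all, 22 of 31 synthetase genes were called between H1975 and H1299 with PBS, where 42% of all genes were called. Among the cytosolic genes 2 were higher and 12 lower in H1975, and among the mitochondrial genes 3 were higher and 5 lower. Over all genes 21.2% were higher and 20.8% lower.

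Between H1975 and A549 with PBS, 14 of 31 were called, against 38.3% of all genes. AARS1, the alanyl-tRNA synthetase gene, was at 12.40 ± 0.11 in H1975 and at 14.91 ± 0.15 in A549 (SD, n = 4 each), a difference of -2.50 ± 0.16 (SE, limma adjusted p = 1.36e-13). The mitochondrial SARS2 was lower in H1975 by -2.06 ± 0.36. FARSA, the catalytic subunit of the phenylalanyl enzyme, was higher there by 1.67 ± 0.24. Between A549 and H1299 with PBS, 17 of 31 were called, against 41.5% of all genes, with differences of -1.85 ± 0.25 for WARS2, -1.81 ± 0.20 for LARS1 and -1.77 ± 0.23 for RARS2. In all 3 comparisons the share of synthetase genes called was above that of all genes, though close to it between H1975 and A549. No test of this was made. With PBS in H1975, 8700 of 17687 genes had means above the highest background probe set, as did all 16 cytosolic and 10 mitochondrial genes.

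In H1975, cytosolic synthetase genes were higher with Omomyc and mitochondrial genes were not. Of 16 cytosolic genes 8 rose and 1 fell. Of 15 mitochondrial genes 0 rose and 2 fell, and at an unadjusted p under 0.05 limma gave 0 higher and 3 lower, against 10.7% and 11.7% of all genes. Over all genes, 11.8% were called, 5.57% higher and 6.28% lower, or 985 higher and 1110 lower. Median centring of the arrays turned that split to 1557 higher and 1028 lower. The median change was 0.70 for the cytosolic genes and -0.19 for the mitochondrial genes, against 0.0038 for all genes. The mitochondrial median was -0.08 without Omomyc replicate 1 and -0.10 without Omomyc replicate 2. The arrays of the treatments did not overlap, with Omomyc above PBS, for 8 cytosolic and 0 mitochondrial genes, against 5.18% of all genes. Omomyc was below PBS without overlap for 1 cytosolic and 3 mitochondrial genes, against 5.35% of all genes.

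AARS1 had the largest rise. It was at 13.71, 13.80, 13.63, 13.48 and 13.70 on the Omomyc arrays and at 12.38, 12.28, 12.54 and 12.42 on the PBS arrays of H1975. The groups did not overlap, and the rise was 1.26 ± 0.15 (SE, limma adjusted p = 1.19e-06). The glycyl-tRNA synthetase gene GARS1 was at 15.74, 15.67, 15.68, 15.65 and 15.87 with Omomyc and at 14.55, 14.51, 14.85 and 14.70 with PBS. Every Omomyc array was above every PBS array, and the rise was 1.07 ± 0.15. SARS1 was at 12.80, 13.05, 13.18, 13.48 and 12.70 with Omomyc, against 12.28, 12.32, 11.54 and 11.66 with PBS. Its groups did not overlap either, though each ranged more widely than those of GARS1, and the rise was 1.09 ± 0.19.

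YARS1 rose by 1.06 ± 0.19, EPRS1, whose product joins glutamate and proline, by 0.89 ± 0.24, the cysteinyl gene CARS1 by 0.87 ± 0.17, the tryptophanyl gene WARS1 by 0.86 ± 0.16 and LARS1 by 0.82 ± 0.20. The adjusted p of these was at most 0.0126, which is that of EPRS1. EPRS1 overlapped between the groups, with 11.72, 11.77, 12.32, 12.15 and 11.31 with Omomyc and 10.58, 11.06, 11.80 and 10.41 with PBS. Its call was lost without PBS replicate 1 (0.77, adjusted p = 0.0588) or PBS replicate 4 (0.71, adjusted p = 0.0739). The isoleucyl gene IARS1 had a change of 0.59 ± 0.22 and was not called (adjusted p = 0.0922, or 0.0342 with the run as a block). FARSA (-0.11), FARSB (-0.13), KARS1 (0.04), NARS1 (0.16), RARS1 (-0.19) and TARS1 (-0.18) had changes near 0.

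HARS1, the histidyl gene, was the only cytosolic member that fell in H1975. It was at 10.37, 9.91, 10.90, 10.75 and 9.26 with Omomyc and at 11.26, 11.16, 10.95 and 11.08 with PBS, a change of -0.88 ± 0.28 (adjusted p = 0.0381). The Omomyc arrays ranged widely and all lay below the PBS arrays, but the highest Omomyc array (10.90) was close to the lowest PBS array (10.95). The call was lost without any 1 of Omomyc replicates 1, 2 and 5 or of PBS replicates 1 to 4, with adjusted p between 0.0549 and 0.132 and changes between -0.93 and -0.63.

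Of the mitochondrial genes in H1975, CARS2 fell by 0.91 ± 0.26 (adjusted p = 0.0167). It was at 11.44, 11.22, 11.51, 11.53 and 11.34 with Omomyc and at 12.60, 12.19, 12.16 and 12.34 with PBS, without overlap. Without PBS replicate 1 the change was -0.82 (adjusted p = 0.0609). The methionyl gene MARS2 was at 5.03, 3.58, 5.05, 4.97 and 3.31 with Omomyc, against 5.79, 5.94, 5.29 and 5.24 with PBS. The groups did not overlap and the change was -1.18 ± 0.38 (adjusted p = 0.0391), but all 9 values lie below the highest background probe set, so its size is uncertain. The MARS2 call was lost without PBS replicate 1, 2 or 3 or Omomyc replicate 2 or 5, with changes between -1.27 and -0.91 and adjusted p between 0.0518 and 0.128. IARS2 had a change of -0.63 and was not called (adjusted p = 0.0511, or 0.00368 with the run as a block). The other 12 lay between -0.60 and 0.31.

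In H1299 the cytosolic genes went the other way. Of 16 cytosolic genes 10 fell and 0 rose, and at an unadjusted p under 0.05 the limma fit gave 13 lower and 0 higher, against 9.72% and 9.67% of all genes. Of 15 mitochondrial genes 0 were called, and 1 was lower at an unadjusted p under 0.05, which is near the share of all genes. Over all genes, 8.87% were called, 4.35% higher and 4.52% lower. The median change was -1.06 for the cytosolic and -0.07 for the mitochondrial genes, against 0.0018 for all genes. The mitochondrial median lay between -0.18 and 0.04 with 1 array left out, and it was above 0 without Omomyc replicate 4. Omomyc arrays were below PBS arrays without overlap for 10 cytosolic and 0 mitochondrial genes, against 4.09% of all genes, and above them for 0 of either, against 3.91%.

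IARS1 fell furthest. It was at 12.06, 11.94, 11.93, 11.16 and 11.10 on the Omomyc arrays and at 14.28, 13.48, 13.60, 13.72 and 13.67 on the PBS arrays of H1299. The gap between the groups was larger than the range of either, and the change was -2.11 ± 0.21 (SE, limma adjusted p = 8.91e-08). WARS1 was at 13.20, 13.31, 13.25, 13.53 and 13.15 with Omomyc and at 15.11, 14.99, 14.93, 15.07 and 14.79 with PBS. The groups were far apart, with a change of -1.69 ± 0.15 (adjusted p = 1.92e-08).

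The phenylalanyl-tRNA synthetase is built from 2 kinds of subunit, and their genes differed in H1299. FARSB was at 12.21, 11.93, 12.54, 12.71 and 12.41 with Omomyc, against 14.13, 13.91, 13.97, 13.78 and 14.06 with PBS, a change of -1.61 ± 0.18 (adjusted p = 4.50e-07). FARSA was at 12.00, 12.05, 12.17, 12.06 and 11.72 with Omomyc, against 12.29, 12.43, 12.36, 12.05 and 11.99 with PBS, a change of -0.23 (adjusted p = 0.679). The FARSB groups did not overlap and the FARSA groups did. The difference between the 2 subunits was not tested.

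AARS1 was at 12.47, 12.60, 12.45, 12.68 and 12.32 with Omomyc and at 14.08, 13.87, 13.77, 13.68 and 13.82 with PBS in H1299, a change of -1.34 ± 0.14 (adjusted p = 3.11e-07). GARS1 was at 14.77, 14.61, 14.42, 14.69 and 14.87 with Omomyc and at 15.84, 15.79, 15.68, 15.88 and 15.68 with PBS, a change of -1.10 ± 0.14. Neither gene had an overlap between the groups. YARS1 fell by 1.24 ± 0.18, LARS1 by 1.22 ± 0.19, SARS1 by 1.16 ± 0.18 and CARS1 by 1.03 ± 0.16, with adjusted p of at most 8.38e-05. TARS1, the threonyl gene, fell by 0.76 ± 0.23 (adjusted p = 0.0336). Its groups overlapped, and the call was lost without PBS replicate 2 or 3 or Omomyc replicate 1, 4 or 5, with changes between -0.73 and -0.65 and adjusted p between 0.0753 and 0.106. EPRS1 (-0.69), HARS1 (-0.66), NARS1 (-0.64), KARS1 (-0.03) and RARS1 (0.14) were not called. With the run as a block EPRS1 (adjusted p = 0.00884), HARS1 (0.0146) and NARS1 (0.0132) passed.

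Of the mitochondrial genes in H1299, LARS2 had the largest change, -0.80 (adjusted p = 0.161, or 0.024 with the run as a block), and the other 14 lay between -0.40 and 0.23. The LARS2 mean in H1299 was 6.13 with Omomyc, below the highest background probe set, and 6.93 with PBS, so the size of its change is uncertain. The median SE of a change in H1299 was 0.24 for mitochondrial genes and 0.19 for cytosolic genes. In every group all 16 cytosolic genes were above the highest background probe set, as were 9 to 11 of the 15 mitochondrial genes. Changes of the dimmer mitochondrial genes, such as AARS2, EARS2, MARS2 and VARS2, whose means were below 6.69 in every group, are therefore bounded less well.

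**Figure D1:**
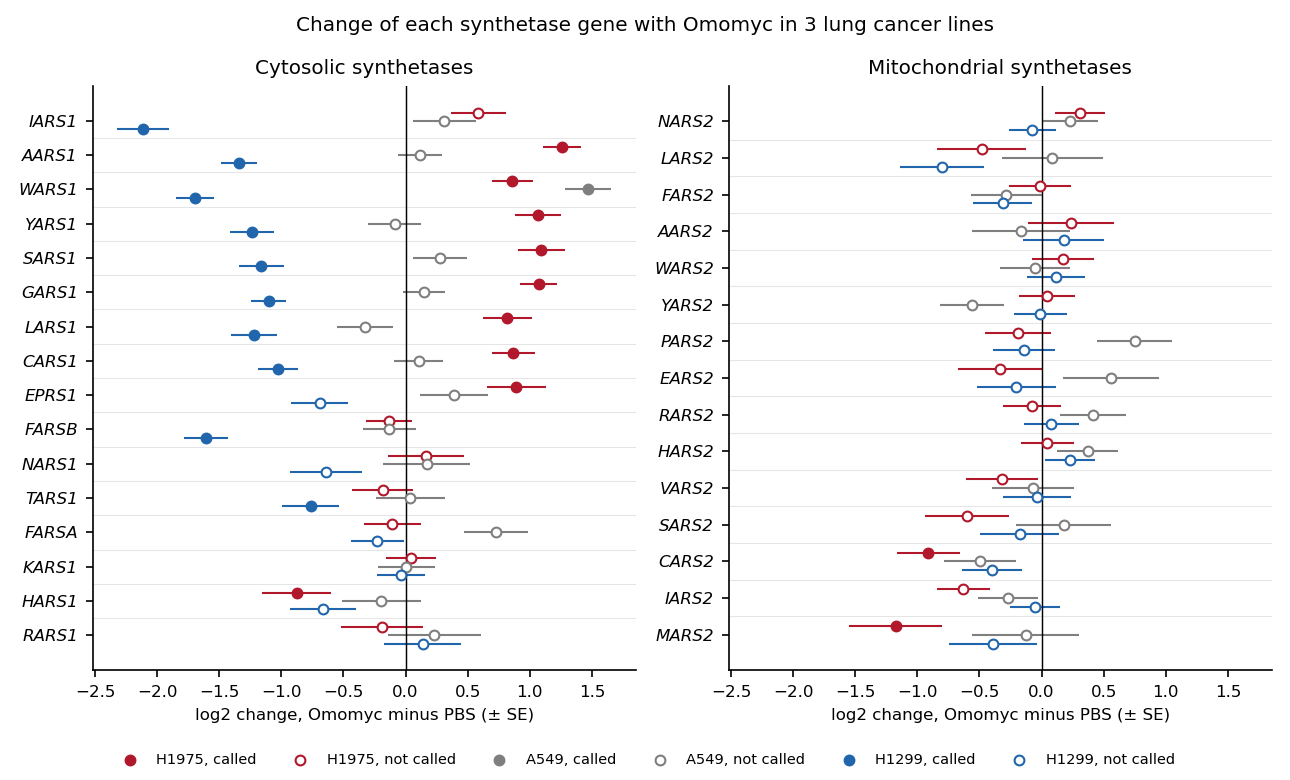
Log2 change with Omomyc (horizontal axis, Omomyc minus PBS, ± SE) of the 16 cytosolic (left) and 15 mitochondrial (right) synthetase genes in H1975 (red), A549 (grey) and H1299 (blue). Filled points are called at an adjusted p under 0.05. The red and blue points of 7 cytosolic genes are filled on opposite sides of 0, and among mitochondrial genes only CARS2 and MARS2 in H1975 are filled.

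In A549 a single synthetase gene was called. WARS1 was at 16.08, 15.95 and 16.01 on the Omomyc arrays and at 14.53, 14.72, 14.26 and 14.67 on the PBS arrays. The groups did not overlap, and the rise was 1.47 ± 0.19 (SE, limma adjusted p = 1.84e-05). WARS1 is also known as a gene induced by interferon gamma. Over all genes in A549, 1.19% were called, 0.916% higher and 0.277% lower, or 162 higher and 49 lower. Quantile normalization of the arrays gave 233 higher and 119 lower. Of the mitochondrial genes 0 were called in the limma fit, and 2 were past an unadjusted p under 0.05, as were 2 of the cytosolic genes, against 8.72% of all genes. The median change was 0.13 for the cytosolic and -0.05 for the mitochondrial genes, against 0.042 for all genes. The cytosolic median was 0.22 without Omomyc replicate 2 and 0.07 without Omomyc replicate 3. The mitochondrial median lay between -0.14 and 0.11 with 1 array left out, and was above 0 without PBS replicate 1 or 3 or Omomyc replicate 2. Omomyc arrays were above PBS arrays without overlap for 4 cytosolic genes and 1 mitochondrial gene, against 5.79% of all genes, and below them for 0 of either, against 3.6%.

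The other cytosolic genes were not called in A549. AARS1 was at 15.09, 14.94 and 15.03 with Omomyc and at 14.75, 14.90, 14.86 and 15.11 with PBS, a change of 0.12 (adjusted p = 0.97). GARS1 was at 15.01, 14.93 and 14.83 with Omomyc and at 14.69, 14.78, 14.77 and 14.86 with PBS, a change of 0.15 (adjusted p = 0.939). IARS1 was at 13.87, 13.61 and 13.86 with Omomyc and at 13.49, 13.35, 13.82 and 13.20 with PBS, a change of 0.31 (adjusted p = 0.87). In all 3 genes the groups overlapped. A549 had the fewest Omomyc arrays, and a p that misses the threshold there does not show that a gene was unchanged.

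The called cytosolic genes of H1975 and of H1299 were largely the same. AARS1, CARS1, GARS1, LARS1, SARS1, WARS1 and YARS1 rose in H1975 and fell in H1299, which is 7 of the 8 that rose in H1975 and 7 of the 10 that fell in H1299. Over all genes 62 were called in these opposite directions, or 0.351%. With the run as a block it was 9 of 16 cytosolic genes, against 0.718% of all genes. The 2 lines share no arrays, but for each gene both calls use 1 estimate of the spread from the same fit, so they are not independent. The mitochondrial genes had 0 such members.

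**Figure D2:**
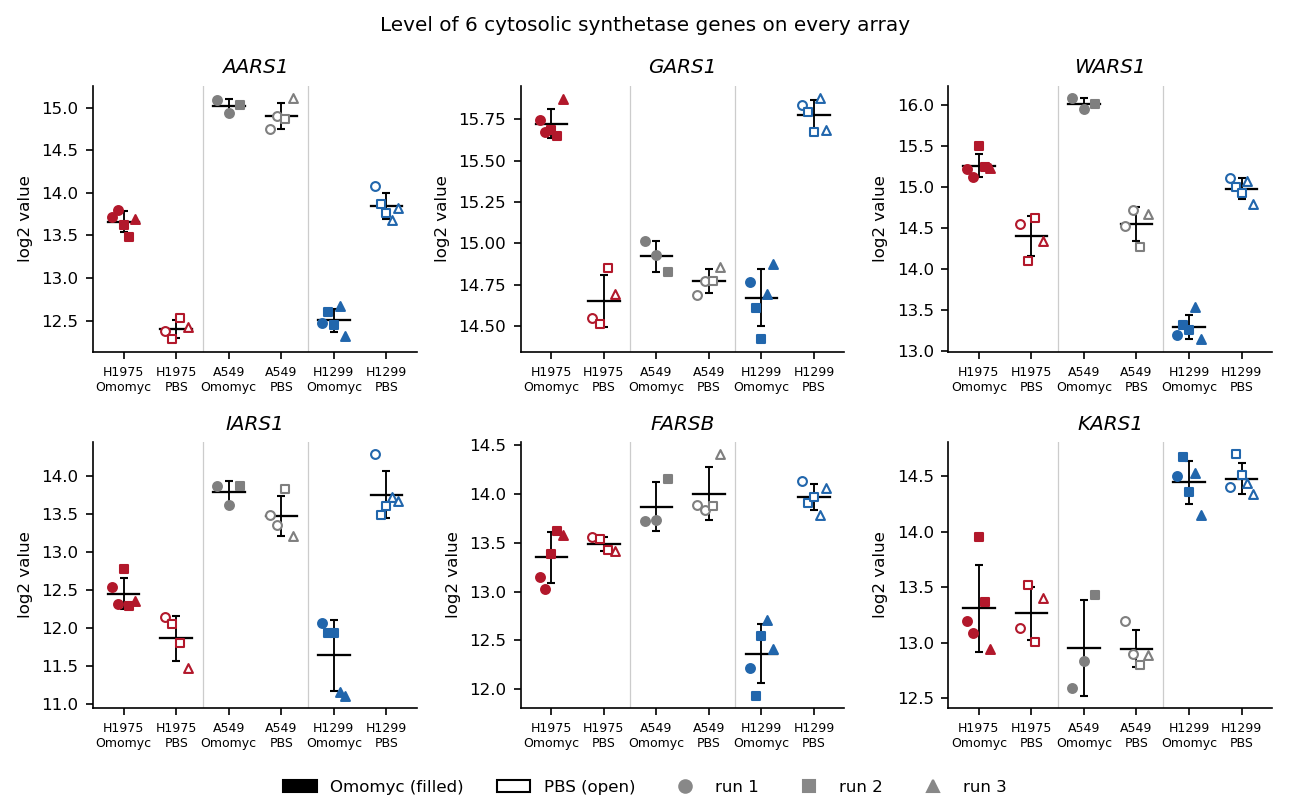
Log2 value (vertical axis) of 6 cytosolic synthetase genes on each of the 26 arrays, Omomyc (filled) left of PBS (open) in each line, with the marker showing the run. Horizontal bars are group means and whiskers are SD. AARS1 and GARS1 are higher with Omomyc in H1975 and lower in H1299, FARSB is apart only in H1299, and KARS1 overlaps between treatments in every line.

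The difference in response between lines was tested directly with a moderated F test of the interaction in limma. It called 10 of 16 cytosolic genes and 0 of 15 mitochondrial genes, against 8.18% of all genes. At an unadjusted p under 0.05 it gave 11 cytosolic genes and 1 mitochondrial gene, against 19.8% of all genes. WARS1 (adjusted p = 2.46e-10), AARS1 (6.02e-09), GARS1 (1.14e-07) and IARS1 (5.46e-07) had the smallest adjusted p. YARS1, SARS1, CARS1, LARS1, FARSB and EPRS1 followed, with adjusted p of at most 0.0055. Among the mitochondrial genes the smallest adjusted p was 0.251.

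The response was higher in H1975 than in H1299 for the same 10 genes, where 2.61% of all genes were called higher. The differences ran between 1.47 ± 0.26 for FARSB and 2.70 ± 0.31 for IARS1. The response was higher in A549 than in H1299 for 8 genes, all of the 10 but LARS1 and EPRS1, where 1.4% of all genes were called higher, and WARS1 had the largest difference at 3.16 ± 0.24. After median centring 5 cytosolic genes were higher in that comparison, against 1.81% of all genes, and with the run as a block 10, against 3.31%. Between H1975 and A549 the response differed for AARS1 (1.14 ± 0.23), GARS1 (0.92 ± 0.23), YARS1 (1.15 ± 0.28) and LARS1 (1.15 ± 0.30), all higher in H1975, where 1.92% of all genes were called higher. Over all genes that comparison had 340 higher and 477 lower, and 610 higher and 509 lower after median centring. WARS1 differed by -0.61 between H1975 and A549 and was not called.

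The runs were taken into account as a block and one at a time. With the run as a block the cytosolic genes numbered 9 higher and 1 lower in H1975, 1 higher in A549 and 13 lower in H1299. The mitochondrial genes numbered 3 lower, 0 and 1 lower. The share of all genes called with this block was 19.2% in H1975 (9.37% higher and 9.85% lower), 2.84% in A549 (1.71% higher and 1.13% lower) and 15.9% in H1299 (7.73% higher and 8.17% lower). The F test with the run as a block called 11 cytosolic and 0 mitochondrial genes, against 17.4% of all genes. In H1975 the cytosolic median was 0.53, 0.70 and 0.78 in runs 1, 2 and 3, in A549 it was 0.22 and 0.18 in runs 1 and 2, and in H1299 it was -0.93, -1.09 and -1.05. The mitochondrial medians were -0.11, -0.07 and -0.29 in H1975, -0.07 and -0.06 in A549, and 0.06, -0.15 and -0.19 in H1299. Several of these runs set a single array against another group, so no p is given for them. Each of the 22 called changes had the same sign in every run that held both treatments. The runs are parts of the same arrays that gave the calls, so this is not a separate check.

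The 2 lines H1975 and H1299 were nearer to each other with Omomyc than with PBS in their cytosolic genes. The median absolute difference between H1975 and H1299 was 0.73 with Omomyc and 1.20 with PBS over the cytosolic genes, and it was smaller with Omomyc for 12 of 16. Over the mitochondrial genes it was 0.90 with Omomyc and 0.77 with PBS, and smaller with Omomyc for 6 of 15. These differences use the same arrays as the changes above and are a restatement of them. They were not computed over all genes, so it cannot be said whether the cytosolic synthetase genes stand apart in this. AARS1, CARS1, EPRS1, FARSB, GARS1, IARS1 and WARS1 had a higher mean in H1975 than in H1299 with Omomyc, and a lower one with PBS.

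**Figure D3:**
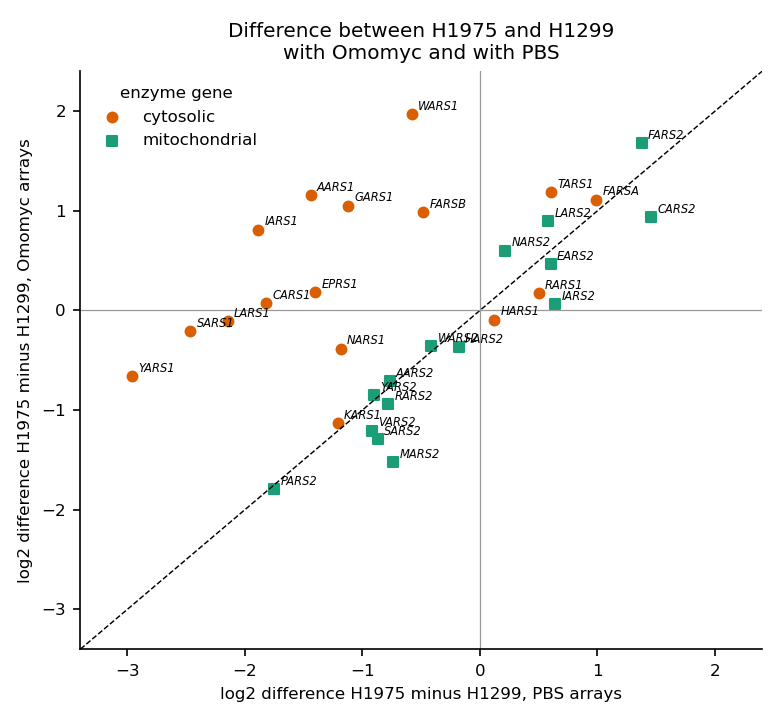
Log2 difference H1975 minus H1299 of each synthetase gene on the Omomyc arrays (vertical axis) against that on the PBS arrays (horizontal axis), with circles for cytosolic and squares for mitochondrial genes. The dashed line marks equal differences. Mitochondrial genes lie near the line, and most cytosolic genes lie above it, by up to 2.70 for IARS1.

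For 10 amino acids 1 cytosolic and 1 mitochondrial gene were listed and both were measured. Phenylalanine, with FARSA and FARSB, and glutamate and proline, which share EPRS1, were measured too but were left out of these pairs. On each array the mitochondrial value was taken from the cytosolic one. The change of this difference compares the 2 enzyme genes of 1 amino acid on the same arrays and was not tested. In H1975 it was positive for 7 amino acids and negative for 3, with a median of 1.02, and the arrays of the treatments did not overlap for 6. Of all pairs of measured genes, 13.8% had differences that did not overlap in H1975. It was largest for cysteine. CARS1 was at 12.47, 12.59, 12.63, 12.41 and 12.24 with Omomyc and at 11.97, 11.51, 11.56 and 11.35 with PBS, above all PBS arrays, while CARS2 was below them, as given above. CARS1 minus CARS2 was 1.06 ± 0.20 (SD, n = 5) with Omomyc and -0.72 ± 0.18 (n = 4) with PBS, a change of 1.78.

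The lowest value in H1975 was that of histidine, -0.92. HARS2 was at 8.86, 8.51, 9.09, 8.90 and 8.30 with Omomyc and at 8.43, 9.07, 8.59 and 8.67 with PBS, with a change of 0.04, whereas HARS1, whose start lies 85 bases away, was lower as given above. HARS1 minus HARS2 lay between 0.96 and 1.85 with Omomyc and between 2.10 and 2.84 with PBS, without overlap. The same difference was lower with Omomyc in the other lines, by -0.56 in A549 and -0.89 in H1299, again without overlap. Histidine was the only pair of the 10 whose treatments did not overlap in any of the 3 lines. The change was also negative in all 3 lines for asparagine.

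In H1299 the change of the difference was negative for 9 of 10 amino acids, with a median of -0.94, and the arrays did not overlap for 5, against 9.89% of all pairs of measured genes. It was lowest for isoleucine. IARS2 was at 13.00, 13.29, 12.76, 12.37 and 12.57 with Omomyc and at 12.99, 12.93, 12.83, 12.68 and 12.82 with PBS. These groups overlapped, while those of IARS1 were apart. IARS1 minus IARS2 was -1.16 ± 0.27 with Omomyc and 0.90 ± 0.28 with PBS (SD, n = 5 each), a change of -2.06. It was highest for arginine at 0.06. RARS1 was at 11.48, 12.72, 12.00, 11.29 and 11.15 with Omomyc and at 11.18, 11.79, 12.02, 11.49 and 11.48 with PBS. RARS2 was at 11.38, 11.13, 11.24, 10.78 and 10.75 with Omomyc and at 10.94, 10.80, 11.22, 10.91 and 11.02 with PBS, so that both genes overlapped between treatments.

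In A549 the median change of the difference was 0.19, positive for 6 and negative for 4 amino acids. It was largest for tryptophan at 1.52. WARS2 was at 8.73, 8.79 and 9.30 with Omomyc and at 9.37, 8.87, 9.36 and 8.39 with PBS, overlapping, beside the rise of WARS1. The tryptophan difference was 7.07 ± 0.33 (SD, n = 3) with Omomyc and 5.55 ± 0.63 (n = 4) with PBS. In A549 the arrays of the treatments did not overlap for 2 amino acids, tryptophan and histidine, against 10.8% of all pairs of measured genes.

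**Figure D4:**
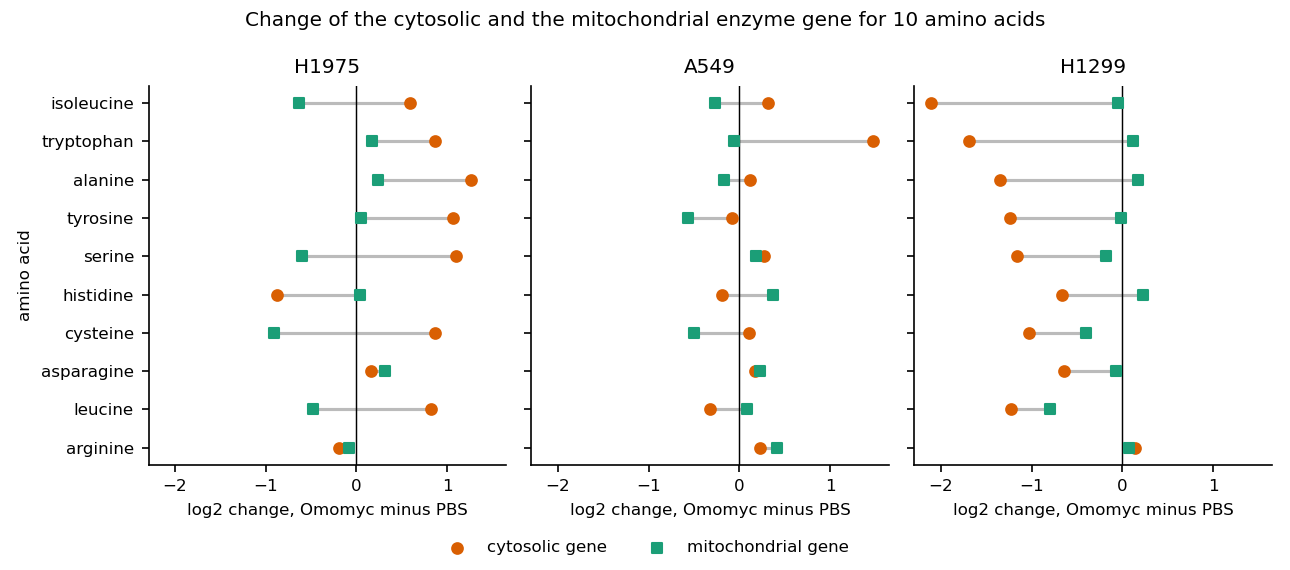
Log2 change with Omomyc (horizontal axis, Omomyc minus PBS) of the cytosolic gene (circles) and the mitochondrial gene (squares) of the same amino acid, for 10 amino acids in each line. Grey bars join the partners. Circles lie right of squares for 7 amino acids in H1975 and left of them for 9 in H1299, and the longest bar in A549 is that of tryptophan.

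Grouped by structure, the 5 measured genes of the multisynthetase complex had 2 rising in H1975, EPRS1 and LARS1, and 2 falling in H1299, IARS1 and LARS1. The 11 other cytosolic genes had 6 rising and 1 falling in H1975 and 8 falling in H1299. Over all genes 5.57% were higher and 6.28% lower in H1975, and 4.35% were higher and 4.52% lower in H1299. KARS1 and RARS1, both of the complex, had changes between -0.19 and 0.23 in all 3 lines. AIMP1, the scaffold protein of the complex that was measured, rose by 0.83 ± 0.26 in H1975 (adjusted p = 0.0333) and was at 0.11 in A549 and -0.28 in H1299, not called. By catalytic fold, class I and class II had 15 measured genes each, leaving out EPRS1, whose product holds an enzyme of both. Both classes hold cytosolic and mitochondrial genes. In H1975 class I had 4 rising and 2 falling, the mitochondrial CARS2 and MARS2, and class II had 3 rising and 1 falling, HARS1. Each had 5 falling in H1299.

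Set beside the sequences shown above, 3 of the 6 cytosolic genes with the CARE letters rose in H1975, AARS1, CARS1 and GARS1. Of the same 6, 5 fell in H1299, those 3 with IARS1 and TARS1. Over all genes 5.57% were higher in H1975 and 4.52% lower in H1299. CARS1, GARS1 and TARS1 each have 2 windows, and 1 of them holds the match. NARS1 had changes of 0.16 in H1975 and -0.64 in H1299 and was called in neither. The cytosolic genes whose windows held no such match were EPRS1, FARSA, FARSB, HARS1, KARS1, RARS1, SARS1 and WARS1. Of these, EPRS1, SARS1 and WARS1 rose and HARS1 fell in H1975, and FARSB, SARS1 and WARS1 fell in H1299. YARS2, the mitochondrial gene with the letters, had changes of 0.05, -0.56 and -0.01 in H1975, A549 and H1299. Of the mitochondrial genes with the E-box letters, CARS2 and MARS2 fell in H1975, and EARS2 was at -0.34, not called. CARS2 has the letters in 1 of its 2 windows, and the means of MARS2 and EARS2 lie below the highest background probe set. IARS1, the cytosolic gene with the E-box letters, was at 0.59 in H1975, not called. In H1299 IARS1 fell and the mitochondrial ones were not called. Whether either motif plays a part in the changes was not tested.

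Genes of the amino acid response, namely ATF4 itself and genes that it is known to drive, were taken as a list beside the synthetases. It held 26 genes and no synthetase, and all were measured. In H1975, 17 rose and 1 fell, against 5.57% and 6.28% of all genes, with a median change of 1.15. PSPH, an enzyme of serine synthesis, is the one that fell (-0.97). DDIT3, the gene of the stress factor CHOP, changed by 4.61 ± 0.25, ALDH1L2, of mitochondrial folate metabolism, by 2.41 ± 0.24, and PHGDH, the first enzyme of serine synthesis, by 2.63 ± 0.27. In A549, ALDH1L2 (1.36 ± 0.28) and DDIT3 (1.35 ± 0.28) rose and 0 fell, against 0.916% and 0.277% of all genes, with a median of 0.15. In H1299, 0 rose and 20 fell, against 4.35% and 4.52% of all genes, with a median of -1.68, among them the amino acid transporter genes SLC7A5 (-3.26 ± 0.16) and SLC7A11 (-3.84 ± 0.26) and the serine synthesis gene PSAT1 (-2.37 ± 0.17). ATF4 itself rose by 1.15 ± 0.19 in H1975 (adjusted p = 7.36e-05) and was not called in A549 (0.43, adjusted p = 0.582) or H1299 (-0.43, adjusted p = 0.147, or 0.0406 with the run as a block). Whether the level of ATF4 plays a part in the synthetase changes was not tested.

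Other genes of tRNA handling and translation were looked at as 4 further lists. They are to be read against the shares of all genes called, 11.8% in H1975, 1.19% in A549 and 8.87% in H1299. With the run as a block those shares were 19.2%, 2.84% and 15.9%. Of 6 measured genes for tRNA proofreading, selenocysteine and export, XPOT, the tRNA exporter, rose by 0.87 ± 0.24 in H1975 (adjusted p = 0.0136) and fell by 0.74 ± 0.22 in H1299 (adjusted p = 0.0344). In H1299 DTD2, a gene of tRNA proofreading, fell by 0.62 ± 0.20. TARS3, a further cytosolic threonyl-tRNA synthetase gene that is not among the 35, rose there by 0.76 ± 0.23. With the run as a block DTD2 in H1975 and DTD1 in H1299 were also lower. The list had 0 called genes in A549. The 4 mitochondrial partners GATB, GATC, QRSL1 and MTFMT, which finish the charging of certain mitochondrial tRNAs, were called in none of the 3 lines by limma. Of 4 measured elongation factor genes GFM1, of the mitochondrial ribosome, fell by 0.67 ± 0.21 in H1975 and by 0.80 ± 0.20 in H1299. Of 6 measured genes of the mitochondrial unfolded protein response 0 were called in H1975 and A549, and the protease gene LONP1 (-1.76 ± 0.28) and the chaperone gene HSPA9 (-0.92 ± 0.21) fell in H1299. With the run as a block LONP1 (adjusted p = 0.00445) and TRAP1 (0.0257) were higher and HSPE1 (0.0208) was lower in H1975, and 4 of the 6 were lower in H1299.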

How the data were processed

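RNA of 26 samples was hybridised to single-colour arrays, and the labels call the arrays of a group biological replicas. As nothing else says that they came from separate cultures, p-values measure the spread between these arrays, which may be technical. The values were deposited by the authors as log2. Per the submitters' processing notes RMA and Partek were used, with no version named. Whether arrays were normalized jointly is not stated there. Values ran between 1.35 and 19.91. Of 24351 features 17709 had 1 gene symbol and 6642 had none, and the brightest probe set stood for each of 20 genes that had several, leaving 17687. The number of arrays limits the precision.

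limma 3.58.1 in R 4.3.3 fitted 1 coefficient per group to all 26 arrays (20 residual degrees of freedom). The synthetase genes, the other lists, the motifs and the runs were chosen with earlier results of these data known. Values on each array are given for the 4 called genes with the largest change in a line, the 4 with the smallest F test p and the extreme partner pairs. With PBS the 3 largest differences per pair of lines are named, and up to 3 genes per list and line. ATF4, FARSA, HARS1, EPRS1, DTD2 and TARS3 were given more room after their values were seen.

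Same-numbered Omomyc and PBS arrays deviated together in H1299 (r of 0.259 to 0.389 over 5 pairs) and A549 (0.109 to 0.196 over 3), and not in H1975 (-0.196 to 0.331 over 4). By this the numbers were taken as pairs in H1299 and A549. The main fit has no term for these pairs, which enter only in the replicate block. The arrays of each such pair shared a run, and once run means were also taken out r was -0.148 to 0.0462 in H1299 and -0.189 to 0.00828 in A549, so that the shared deviation was not seen within runs. The replicate block also used the numbers of H1975, although they were not taken as pairs. Simulated arrays with known changes were used to check the fitting step.

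Alternatives were quantile normalization, median centring, the run as a block or alone, the replicate block, the line alone, trend and robust settings, a filter at the 30th percentile of mean level, calls at an adjusted p under 0.01 or with a minimum fold change of 2, and leaving out each array.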

Additional observations from a re-analysis of the deposited data

Results flagged for a closer look

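The response to Omomyc differed between the 3 lines by the limma F test for 10 cytosolic genes. The adjusted p was 2.46e-10 for WARS1, 6.02e-09 for AARS1, 1.14e-07 for GARS1, 5.46e-07 for IARS1, 2.18e-06 for YARS1, 3.51e-06 for SARS1, 1.08e-05 for CARS1, 2.97e-05 for LARS1, 0.000234 for FARSB and 0.0055 for EPRS1.

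Single arrays stood apart from the rest of their group in 7 of 155 groups of values checked with Dixon's test, where chance flags about 1 in 20. LARS1 was at 13.05 on Omomyc replicate 2 of H1299, against 12.19 to 12.42 on the others, and SARS1 at 13.47 on Omomyc replicate 3, against 13.18 to 13.21. AARS2 was at 5.39 on that same array, against 4.32 to 4.42, below the highest background probe set. On the PBS arrays of H1299, EPRS1 was at 12.17 on replicate 2, against 12.36 to 12.43, and YARS1 at 14.38 on replicate 1, against 14.72 to 14.77. VARS2 was at 5.96 on Omomyc replicate 3 of H1975, against 4.51 to 4.84. FARSB was at 14.41 on PBS replicate 4 of A549, the only A549 array of run 3, against 13.84 to 13.89.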

How the results depend on the processing

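All 22 called changes of synthetase genes kept their call and direction under quantile normalization, median centring, the run as a block, trend and robust settings and the filter on low genes, and none was reversed under any alternative. Median centring moved the median of all genes with PBS to -0.18 for H1975 minus H1299 and -0.13 for A549 minus H1299, and with Omomyc minus PBS in H1975 to 0.12 and the cytosolic and mitochondrial medians there to 0.81 and -0.08, a shift of the same size. Called mitochondrial genes in H1299 numbered 1 with the run as a block (LARS2, adjusted p = 0.024). With the replicate block MARS2 in H1975 was lost (-0.91, adjusted p = 0.0749), leaving 1 mitochondrial call there, and no other call was lost. The replicate block with the run left 4 cytosolic and 0 mitochondrial calls in H1975, with 7 residual degrees of freedom, and 1 mitochondrial call in H1299. All calls lost with the replicate block, with or without the run, were in H1975, where the numbers were not taken as pairs. These losses therefore cannot decide how firm those calls are. The line alone left 1 mitochondrial call in H1975, and an adjusted p under 0.01 left 0. Both also lost EPRS1 and HARS1 in H1975 and TARS1 in H1299, with adjusted p of 0.0877, 0.095 and 0.0826 on the line alone. A fold change of at least 2 left 4 cytosolic and 1 mitochondrial call in H1975, and with PBS 13 between H1975 and H1299 and 11 between A549 and H1299. On run 1 alone, with 1 PBS array, the cytosolic median in H1975 was 0.53. Leaving out each array gave 0 to 4 mitochondrial calls in H1975, and of 572 such refits of called changes 20 lost the call, in EPRS1, HARS1, CARS2 and MARS2 in H1975 and TARS1 in H1299. The causes were not tested. Signal near background limits what can be read from AARS2, EARS2, MARS2 and VARS2, and in some groups from LARS2 and PARS2.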
